A study of Mus musculus with 16 samples.

Results

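*Sox4*, *Sox11* and *Sox12* form the SoxC family of transcription factor genes, and *Sox9* is a SoxE gene with its own role in skin. These 4 genes, chosen by symbol, are described here among the 14474 genes of an RNA-seq count table from mouse keratinocytes, and all 4 were in the table. *Sox11* was picked because of its pattern in these libraries, so its levels and fold changes are given as a description with no test. *Sox4*, *Sox12* and *Sox9* were added as its relatives and are tested. They too were chosen with earlier results of these data known, which their p-values do not allow for.

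The cells were immortalized mouse keratinocytes (MK cells). MKα3− cells have no α3 integrin and so lack α3β1, a receptor through which keratinocytes bind laminin-332 (LN332) of the basement membrane. MKα3+ cells are the same null line with human α3 put back, so the effect of α3 and that of deriving the second line cannot be told apart. Both lines grew on collagen at 33 °C and 8% CO2 in low-calcium medium, and received LN332 at 0.02 mg/mL, or vehicle (PBS with 10% glycine and sodium azide), for 16 to 24 h. Each of the 4 groups had 4 libraries, numbered 1 to 4, and nothing in the labels says whether they came from separate cultures, so the p-values measure the spread between these libraries, which may be technical. Keratinocytes also secrete LN332 of their own, so vehicle need not be free of it.

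Sox proteins bind DNA through a domain of about the same fold in every family member, the HMG box, which bends the helix. SoxC proteins are best known from embryos, where they keep progenitors alive and switch on neuronal and mesenchymal genes, and *Sox4* and *Sox11* are the strongest activators of the family while *Sox12* is a weak one. In skin, *Sox11* and *Sox4* belong to the embryonic epidermal program that is silenced in adult epidermis and comes back at wound edges. *Sox9* marks and maintains hair follicle stem cells and, outside skin, drives cartilage genes.

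The members lie on different chromosomes of GRCm38 (mm10). *Sox4* (Entrez 20677) is at chr13:28948919-28953699, *Sox11* (20666) at chr12:27334268-27342718 and *Sox12* (20667) at chr2:152393611-152398046, all on the minus strand and each with 1 exon. *Sox9* (20682) is at chr11:112782210-112787757 on the plus strand with 3 exons. The HMG box stretch below is where the coding sequences are most alike, and it is shown because reads from it are those that could be mixed up between members. It lies within 1 exon of each gene, at chr13:28952749-28952838, chr12:27342166-27342255, chr2:152397483-152397572 and chr11:112782906-112782995 in the order of the lines. Each run is 90 coding bases on the gene's own strand, and capitals mark bases that differ from *Sox11*.
Sox11: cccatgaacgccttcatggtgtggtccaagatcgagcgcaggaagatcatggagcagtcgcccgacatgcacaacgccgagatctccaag
Sox4: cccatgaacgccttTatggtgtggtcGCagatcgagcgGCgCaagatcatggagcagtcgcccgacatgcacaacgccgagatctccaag
Sox12: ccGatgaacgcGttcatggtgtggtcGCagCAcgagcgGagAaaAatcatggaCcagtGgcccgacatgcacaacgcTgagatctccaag
Sox9: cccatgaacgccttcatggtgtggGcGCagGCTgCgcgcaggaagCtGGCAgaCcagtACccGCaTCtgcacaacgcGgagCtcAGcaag

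*Sox4* differed from *Sox11* at 6 of the 90 bases, *Sox12* at 12 and *Sox9* at 23. The longest run of bases shared by any pair of whole transcripts was 48, between *Sox4* and *Sox11*, and the other pairs shared at most 33. The exons of *Sox4* overlap the gene Gm26735 on the opposite strand over 2616 of their 4795 bases, and since it is not given in the sources used here whether reads were counted by strand, the *Sox4* count may hold reads of that gene. The exons of *Sox11*, *Sox12* and *Sox9* overlap no other annotated gene.

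**Figure D1:**
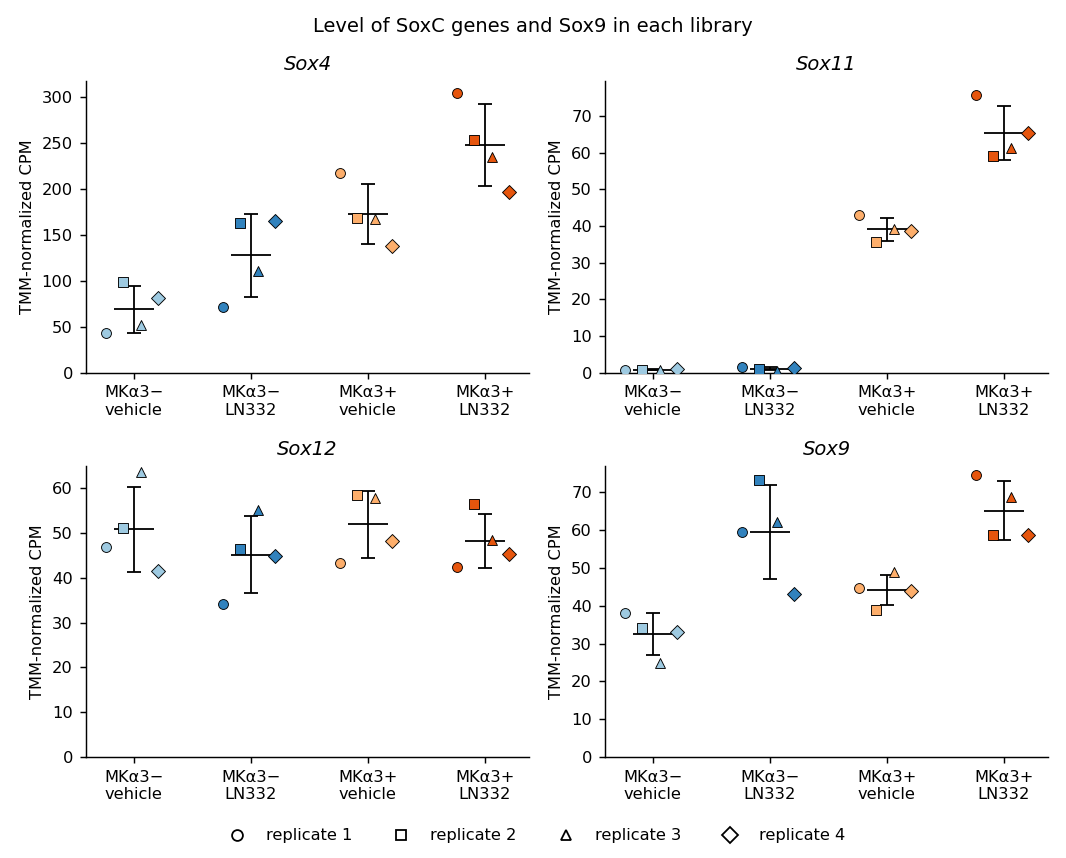
TMM-normalized CPM of *Sox4*, *Sox11*, *Sox12* and *Sox9* on the y axis, each with its own scale from 0, in the 16 libraries by group. Points are libraries with the symbol giving the replicate number, the long bar is the mean and the whiskers are 1 SD (n = 4). *Sox11* is near the axis in MKα3− cells and between 35.5 and 75.8 CPM in MKα3+ cells, while the 4 groups of *Sox12* overlap.

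*Sox11* was the member with the widest range between the lines. In vehicle-treated MKα3− cells its level in CPM, the counts per 1000000 counts of a library after trimmed-mean (TMM) scaling, was 0.702, 0.712, 0.673 and 1.11 in replicates 1 to 4. In vehicle-treated MKα3+ cells it was 42.9, 35.5, 39.3 and 38.5 CPM. Every MKα3+ library was thus far above every MKα3− library. The vehicle values spread over 1.21-fold in MKα3+ cells and 1.64-fold in MKα3− cells, where replicate 4 was the highest. The MKα3− levels rest on 19 to 32 counts per library and the MKα3+ levels on 886 to 1179. With LN332 the level was 1.40, 0.848, 0.467 and 1.37 CPM in MKα3− cells, from 13 to 36 counts. It was 75.8, 59.1, 61.4 and 65.3 CPM in LN332-treated MKα3+ cells, so that the highest group of the 4 was MKα3+ with LN332 and its lowest library was above the highest vehicle library. The fitted difference between the lines was 48.8-fold in vehicle (log2 5.61, SE 0.28, 95% interval 5.02 to 6.20) and 70.02-fold in LN332 (log2 6.13, SE 0.28, 5.55 to 6.71). In bulk RNA, fewer cells that express the gene and less RNA in each cell cannot be told apart.

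*Sox4*, the SoxC gene with the highest level here, was also higher in MKα3+ cells. In vehicle it was 43.4, 98.4, 51.8 and 81.1 CPM in MKα3− cells and 217, 168, 167 and 138 CPM in MKα3+ cells. The MKα3− values spread over 2.27-fold, yet the lowest MKα3+ library stayed above all of them. The fold change was 2.62 (log2 1.39, SE 0.27, adjusted p = 8.43e-04 by limma-voom over all genes), and the exact permutation test of the means gave a two-sided p of 0.0286, the smallest that 4 against 4 libraries allow. With LN332 *Sox4* was 71.0, 163, 110 and 165 CPM in MKα3− cells and 304, 253, 234 and 196 CPM in MKα3+ cells, again without overlap. That difference was 2.03-fold (log2 1.02, SE 0.27, adjusted p = 0.00841 by limma-voom, exact permutation p = 0.0286). A gene was called here, after the study's methods, at an adjusted p under 0.05 with a log2 fold change beyond 0.5 in either direction, and *Sox4* was called higher in both media.

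*Sox12*, the remaining SoxC gene, did not differ between the lines beyond its spread. In vehicle it was 46.9, 51.1, 63.5 and 41.5 CPM in MKα3− cells and 43.2, 58.4, 57.8 and 48.1 CPM in MKα3+ cells. With LN332 it was 34.2, 46.4, 55.1 and 44.9 CPM in MKα3− cells and 42.5, 56.3, 48.4 and 45.2 CPM in MKα3+ cells. All 4 groups overlapped. The log2 difference between the lines was 0.04 in vehicle (95% interval -0.28 to 0.35, adjusted p = 0.885) and 0.10 in LN332 (-0.22 to 0.42, adjusted p = 0.654), both by limma-voom, with exact permutation p-values of 0.857 and 0.571. At this depth, with 882 to 1794 counts per library, a difference as large as that of *Sox4* lay outside both intervals.

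*Sox9* was higher in MKα3+ cells in vehicle by a small step that was not called. Its level was 38.0, 34.2, 25.0 and 33.1 CPM in vehicle-treated MKα3− cells and 44.8, 39.0, 48.8 and 44.0 CPM in vehicle-treated MKα3+ cells. The groups did not overlap, the log2 difference was 0.45 (SE 0.15) and the adjusted p was 0.0355 by limma-voom, but the size was under the minimum of 0.5. The exact permutation p was 0.0286. With LN332 the levels were 59.6, 73.2, 62.1 and 43.2 CPM in MKα3− cells and 74.6, 58.7, 68.8 and 58.6 CPM in MKα3+ cells, which overlapped. The difference there was 0.14 on the log2 scale (SE 0.15, adjusted p = 0.494 by limma-voom, exact permutation p = 0.543).

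Against the background of the whole table, a call between these lines was common. In vehicle 10.9% of all genes were called higher in MKα3+ cells and 7.56% lower, and in LN332 11.7% were called higher and 8.92% lower. The groups of 4 libraries did not overlap for 32.9% of genes in vehicle and for 26.5% in LN332. Of the 3 tested members, 1 was called higher in vehicle (*Sox4*) and the same gene in LN332, and none was called lower. *Sox4* and *Sox9* did not overlap between the lines in vehicle, and *Sox4* alone of the tested members in LN332. The median log2 difference over all genes was 0.01 in each medium.

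**Figure D2:**
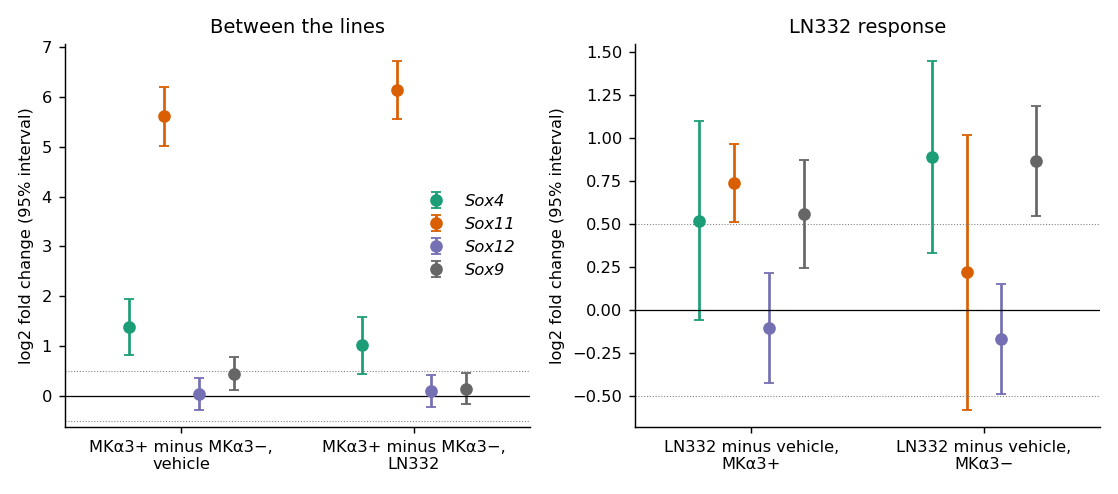
Log2 fold changes of the 4 members with their 95% intervals from limma-voom, for the line difference in each medium (left) and for the LN332 response in each line (right), with dotted lines at the minimum of 0.5 in both directions and a separate y axis for each panel. The line difference of *Sox11* is 5.61 in vehicle and 6.13 in LN332, against 1.39 and 1.02 for *Sox4*, and the LN332 response of *Sox9* lies above 0 in both lines.

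In the fit that did not use the replicate numbers, *Sox9* was the only tested member called for LN332, and only in MKα3− cells. There all 4 LN332 libraries were above all 4 vehicle libraries, a 1.82-fold rise in the fit (log2 0.87, SE 0.15, adjusted p = 0.0275 by limma-voom, exact permutation p = 0.0286), and the gene was called. This call was lost in the fits without LN332 replicate 2 or without vehicle replicate 2, 3 or 4 of MKα3− cells, with adjusted p-values of 0.0832, 0.0790, 0.113 and 0.0549, and also when the fit held the MKα3− libraries alone (0.330). In MKα3+ cells the groups did not overlap either, and the log2 response was 0.56 (SE 0.15), but the adjusted p was 0.147 by limma-voom and the gene was not called, with an exact permutation p of 0.0286. Libraries with the same number moved together in each LN332 comparison, and with the replicate number as a block *Sox9* passed in MKα3+ cells (log2 0.56, adjusted p = 0.0394 by limma-voom) as well as in MKα3− cells (adjusted p = 0.00542).

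*Sox4* was higher with LN332 in 3 of 4 libraries than in every vehicle library, in each line, but was not called in either. The log2 response was 0.89 in MKα3− cells (SE 0.26, adjusted p = 0.156 by limma-voom, exact permutation p = 0.0857) and 0.52 in MKα3+ cells (SE 0.28, adjusted p = 0.592, exact permutation p = 0.0571). Without LN332 replicate 1 of MKα3− cells, the lowest library of its group, the response there was 1.14 with an adjusted p of 0.0310 by limma-voom. *Sox11*, as a description, was 1.67-fold higher with LN332 in MKα3+ cells (log2 0.74, SE 0.11, 95% interval 0.51 to 0.97). In MKα3− cells its log2 response was 0.22 with an interval from -0.58 to 1.02, since the counts there are low. *Sox12* was not called in either line, with log2 responses of -0.17 in MKα3− cells (SE 0.15, adjusted p = 0.672 by limma-voom) and -0.10 in MKα3+ cells (SE 0.15, adjusted p = 0.927). The exact permutation p for *Sox12* was 0.429 in both lines.

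Calls for LN332 were rare in the whole table. In MKα3+ cells 0.173% of genes were called higher and 0.0138% lower, and in MKα3− cells 0.242% were called higher and 0.0622% lower. With the replicate block the called share rose to 1.51% in MKα3+ cells and 1.79% in MKα3− cells. The shares without the block rest on 27 and 44 genes. With libraries left out in turn these counts ran from 0 to 47 in MKα3+ cells and from 1 to 150 in MKα3− cells. The groups did not overlap for 9.66% of genes in MKα3+ cells and 4.95% in MKα3− cells, *Sox9* among them in both lines. Averaged over the lines, 1.35% of genes were called, and of the tested members *Sox9* (log2 0.71, SE 0.11, adjusted p = 0.00212) and *Sox4* (log2 0.70, SE 0.19, adjusted p = 0.0452, limma-voom) were called while *Sox12* was not (-0.14, SE 0.11, adjusted p = 0.525). The *Sox4* call of this average was lost without any one of 11 of the 16 libraries, with adjusted p-values up to 0.0944, and stayed without the other 5.

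**Figure D3:**
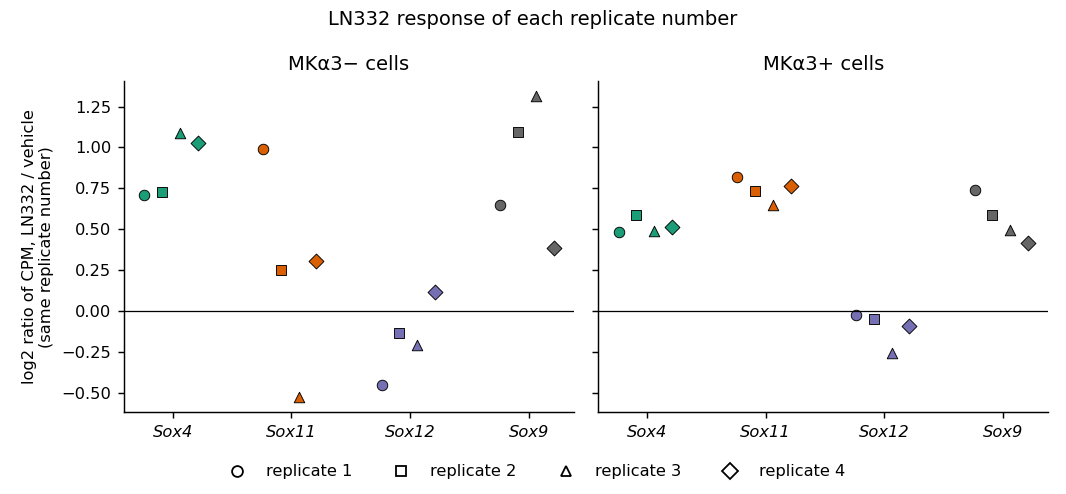
Log2 ratio of the LN332 library to the vehicle library with the same replicate number (y axis) for each member in MKα3− cells (left) and MKα3+ cells (right), with 1 point per number. *Sox4* and *Sox9* lie above 0 for all 4 numbers in both lines, *Sox11* does so in MKα3+ cells, and *Sox12* lies below 0 for all 4 numbers in MKα3+ cells.

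Within replicate numbers the MKα3+ responses were narrow. The LN332 to vehicle ratio of *Sox11* there was 1.77, 1.66, 1.56 and 1.70 for numbers 1 to 4, and that of *Sox4* was 1.40, 1.504, 1.40 and 1.43. For *Sox9* it was 1.67, 1.51, 1.41 and 1.33, so these 3 genes were higher with LN332 in 4 of 4 pairs. *Sox12* ratios were 0.983, 0.965, 0.837 and 0.939, all slightly under 1. In MKα3− cells the *Sox4* ratios were 1.64, 1.66, 2.13 and 2.04 and the *Sox9* ratios 1.57, 2.14, 2.49 and 1.30, again higher in 4 of 4 pairs. The *Sox11* ratios there ran from 0.693 to 1.99 and were above 1 in 3 of 4 pairs, and those of *Sox12* from 0.729 to 1.08. An exact test by sign flips of 4 pairs has 16 sign patterns, of which 2 are always at least as extreme, so it cannot pass 0.05. *Sox4* and *Sox9* reached that limit in both lines, and *Sox12* reached it in MKα3+ cells with lower levels in LN332.

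The LN332 responses of the lines were not shown to differ. By limma-voom 0% of all genes were called for the difference of the responses, and edgeR and DESeq2 also called 0. Of the 14474 genes, 164 had an unadjusted p under 0.05 by limma-voom, and 517 with the replicate block. Both counts are a smaller share of the genes than the 0.05 that would pass with no difference at all. The test was thus conservative here, and the lack of calls does not show that the responses were alike. The MKα3+ response minus the MKα3− response was -0.37 for *Sox4* (SE 0.38, unadjusted p = 0.348), -0.31 for *Sox9* (SE 0.21, unadjusted p = 0.164) and 0.06 for *Sox12* (SE 0.22, unadjusted p = 0.768), all on the log2 scale with adjusted p = 0.9999 by limma-voom. The 95% interval for *Sox9* ran from -0.75 to 0.14, and that for *Sox4* from -1.17 to 0.44. For *Sox11* the difference was 0.52 (SE 0.39) with an interval from -0.31 to 1.35, wide because its MKα3− counts are low. All of these differences come from the fit without the replicate block. With the block that of *Sox4* was -0.36 and that of *Sox9* -0.31, each with an adjusted p of 0.992 by limma-voom. Within replicate numbers the LN332 to vehicle ratios of *Sox4* were 1.64 to 2.13 in MKα3− cells and 1.40 to 1.504 in MKα3+ cells, without overlap. A difference between these paired ratios was not tested.

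The order of the group means was not the same for all members. For *Sox4* the order was MKα3− vehicle (68.7 ± 25.6 CPM, SD, n = 4), MKα3− LN332 (127 ± 45.3), MKα3+ vehicle (173 ± 33.0) and MKα3+ LN332 (247 ± 44.7), and each group overlapped the next. For *Sox11* the MKα3− groups (0.798 ± 0.205 and 1.02 ± 0.447) overlapped each other, and the MKα3+ vehicle (39.1 ± 3.03) and LN332 (65.4 ± 7.40) groups stood apart from each other and from MKα3− cells. For *Sox9* the order was MKα3− vehicle (32.6 ± 5.50), MKα3+ vehicle (44.1 ± 4.04), MKα3− LN332 (59.5 ± 12.4) and MKα3+ LN332 (65.2 ± 7.90), and both the middle groups and the LN332 groups overlapped. By their means, *Sox9* thus ordered the groups first by LN332, and *Sox4* and *Sox11* first by line. For *Sox12* the means ran from 45.2 ± 8.57 in LN332-treated MKα3− cells to 51.9 ± 7.46 in vehicle-treated MKα3+ cells, and no neighbours separated.

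**Figure D4:**
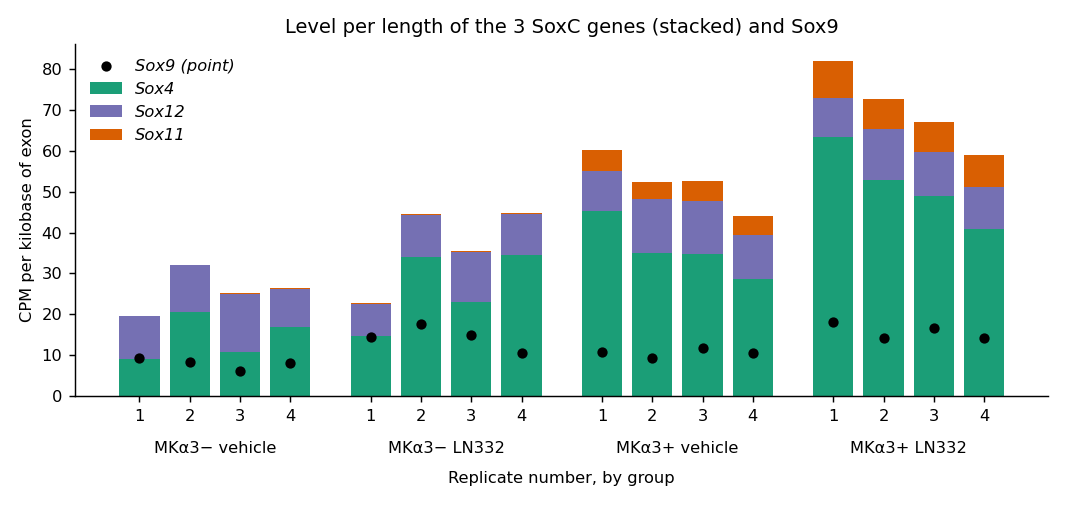
CPM per kilobase of exon (y axis) in each of the 16 libraries, with bars stacked from *Sox4*, *Sox12* and *Sox11* and a black point for *Sox9*. The stacked SoxC total has a mean of 25.8 in vehicle-treated MKα3− cells and 70.2 in LN332-treated MKα3+ cells, and *Sox11* is visible as a band in the MKα3+ bars.

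Levels of different genes can be set side by side only per length, here as CPM per kilobase of annotated exon. On that scale *Sox4* had the highest mean in all 4 groups, at 14.3 in vehicle-treated MKα3− cells, 26.6 with LN332, 36.0 in vehicle-treated MKα3+ cells and 51.5 with LN332. In vehicle-treated MKα3− cells the order was not the same in every library, since *Sox12* was above *Sox4* in replicate 1 (10.5 and 9.05) and replicate 3 (14.3 and 10.8). The *Sox4* values may also hold reads of Gm26735. *Sox11* was the lowest, at 0.0960, 0.123, 4.70 and 7.87 in the same order. The group means of *Sox12* lay between 10.1 and 11.7 and those of *Sox9* between 7.88 and 15.8. The SoxC total was 25.8 ± 5.09 in vehicle-treated MKα3− cells, 36.8 ± 10.4 with LN332, 52.3 ± 6.54 in vehicle-treated MKα3+ cells and 70.2 ± 9.67 with LN332 (CPM per kilobase, SD, n = 4). Of that total *Sox11* made up 0.381% and 0.374% in MKα3− cells and 9.06% and 11.3% in MKα3+ cells, in vehicle and LN332. The *Sox12* part was 45.4% and 28.7% in MKα3− cells and 22.6% and 15.6% in MKα3+ cells, with its group means within the range above. Among all genes, mean *Sox11* CPM was above 8.40% of genes in vehicle-treated MKα3− cells and above 58.2% in vehicle-treated MKα3+ cells, and *Sox4* above 73.7% and 91.5%.

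Sequence upstream of the SoxC genes is shown to set the genes that differed between the lines beside *Sox12*, which did not pass. The runs are the 250 bases before the annotated start from RefSeq (GRCm38.p6), on the gene's strand, at chr13:28953700-28953949, chr12:27342719-27342968 and chr2:152398047-152398296, and 3 of the 4 members had an entry. Capitals mark matches on either strand to 4 motifs. They are the letters GGAATG of the TEAD motif, the letters CCAAT of the CCAAT box, the letters TGANTCA of the AP-1 motif and the letters AACAAT of the SOX motif.
Sox4 promoter: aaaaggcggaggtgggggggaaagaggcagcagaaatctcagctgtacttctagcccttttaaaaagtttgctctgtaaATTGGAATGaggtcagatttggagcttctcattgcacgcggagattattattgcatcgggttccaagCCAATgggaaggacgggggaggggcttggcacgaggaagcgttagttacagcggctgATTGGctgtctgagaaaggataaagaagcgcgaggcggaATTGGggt
Sox11 promoter: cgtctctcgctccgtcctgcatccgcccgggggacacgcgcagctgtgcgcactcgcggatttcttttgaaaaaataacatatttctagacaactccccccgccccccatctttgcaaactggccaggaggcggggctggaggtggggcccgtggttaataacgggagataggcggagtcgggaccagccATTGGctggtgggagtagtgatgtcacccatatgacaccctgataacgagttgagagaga
Sox12 promoter: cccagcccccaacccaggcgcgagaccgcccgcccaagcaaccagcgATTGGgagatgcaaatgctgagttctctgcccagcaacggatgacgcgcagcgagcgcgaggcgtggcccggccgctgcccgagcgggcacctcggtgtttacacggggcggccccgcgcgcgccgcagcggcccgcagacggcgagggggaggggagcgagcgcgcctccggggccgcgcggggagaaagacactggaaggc

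The CCAAT letters were in all 3 windows and in 33.8% of the 32851 promoter windows of this length. *Sox4* held 4 such matches, at -171 to -167, -104 to -100, -47 to -43 and -8 to -4 counted back from the start, *Sox11* held 1 at -60 to -56 and *Sox12* held 1 at -203 to -199. For *Sox11* alone of these genes, the bases just after the RefSeq start were not found in the transcript used for its coding bases. Its position thus depends on the annotation. The TEAD letters were in the *Sox4* window, at -168 to -163 and overlapping the first CCAAT match, and in 12.6% of all windows. The AP-1 and SOX letters, in 6.75% and 9.42% of all windows, were not in these windows. GC content was 50.8% for *Sox4*, 58.0% for *Sox11* and 74.4% for *Sox12*, against a median of 52.4%.

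Genes near the members had median log2 line differences in vehicle between -0.05 and 0.21. Within 10 Mb of *Sox11* there were 68 other measured genes, with a median log2 difference between the lines in vehicle of 0.09, and 1 of them had a larger absolute difference than *Sox11*. Within 10 Mb of *Sox4* the 106 others had a median of 0.12, and 14 had a larger one. The medians around *Sox12* (158 genes) and *Sox9* (240 genes) were 0.21 and -0.05.

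**Figure D5:**
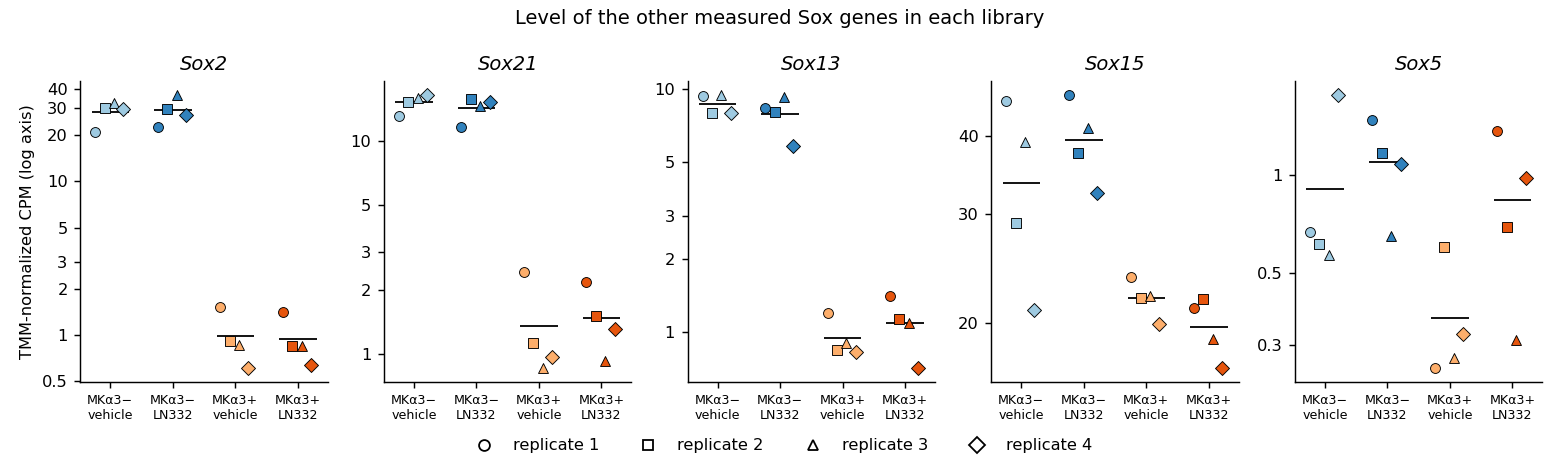
TMM-normalized CPM on a log axis for the 5 other measured Sox genes, each with its own scale, in the 16 libraries by group. Symbols give the replicate number and the bar is the mean, and *Sox2*, *Sox21* and *Sox13* are lower in every MKα3+ library than in any MKα3− library.

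Most other measured Sox genes were lower in MKα3+ cells, opposite to *Sox4*. Of 16 other Sox genes listed, 5 were in the table, and 4 of them were called lower in MKα3+ cells in vehicle while none was called higher, where 7.56% of all genes were called lower (8.92% in LN332). *Sox2*, a SoxB1 pluripotency and progenitor gene, was 28.1 ± 5.01 CPM in vehicle-treated MKα3− cells and 0.981 ± 0.389 in MKα3+ cells (log2 -4.87, SE 0.36, adjusted p = 3.00e-08 by limma-voom). *Sox21*, a SoxB2 gene of hair cuticle and progenitors, was 15.1 ± 1.498 and 1.35 ± 0.734 CPM (log2 -3.58, adjusted p = 4.46e-08). *Sox13*, a SoxD gene, was 8.66 ± 0.833 and 0.943 ± 0.175 CPM (log2 -3.18, adjusted p = 4.92e-08). *Sox15* was called lower in vehicle with overlapping groups (log2 -0.56, adjusted p = 0.0344) and in LN332 without overlap (log2 -1.01, adjusted p = 6.95e-04), all by limma-voom. *Sox2*, *Sox21* and *Sox13* were called lower in LN332 as well, at log2 -4.97, -3.31 and -2.88, and *Sox5* in neither medium. For LN332, 0 of the 5 were called in either line by limma-voom, edgeR or DESeq2, and 0 had an unadjusted p under 0.05. The median of the 5 line differences in vehicle was -3.18 against 0.01 over all genes. The exons of *Sox21*, *Sox15* and *Sox5* overlap a gene on the opposite strand in part, so their counts carry the same doubt as that of *Sox4*.

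Genes linked to SoxC proteins in other tissues had a few calls between the lines. Of 14 listed, 10 were measured, and 2 were called higher in MKα3+ cells in vehicle and 3 in LN332, with none lower, where 10.9% and 11.7% of all genes were called higher. So few genes do not set the list apart from that background. Their median log2 differences were 0.46 and 0.43, against 0.01 over all genes. *Tead2*, a TEAD transcription factor gene, was 0.796 ± 0.422 CPM in MKα3− cells and 6.50 ± 1.89 in MKα3+ cells in vehicle (log2 3.06, adjusted p = 4.88e-06 by limma-voom), and its log2 difference in LN332 was 2.94. *Map2*, a microtubule-associated protein gene of neurons, was higher by 0.97 in vehicle and 0.57 in LN332, and *Ezh2*, a Polycomb methyltransferase gene, was called in LN332 alone (log2 0.51) after 0.44 in vehicle. The neuronal tubulin gene *Tubb3* was not called (log2 0.60 in vehicle, adjusted p = 0.160 by limma-voom). *Dcx*, *Prox1*, *Pax6* and *Hes5* were not among the measured genes. The POU partner genes had 2 of 6 measured and 0 called between the lines, with median log2 differences of -0.15 and -0.13.

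Genes around *Sox9* and Wnt signaling were mixed. Of 12 measured hair follicle stem cell genes of 16 listed, 2 were called higher and 4 lower in MKα3+ cells in vehicle, and 2 and 2 in LN332. The shares called over all genes, for this list and the next ones, were 10.9% higher and 7.56% lower in vehicle and 11.7% and 8.92% in LN332. *Bmp6*, a quiescence signal of follicle stem cells, was lower (log2 -3.70 in vehicle), as were *Krt15* (-2.64), *Gli1* (-1.71) and *Foxc1* (-0.66). *Fgf18* (0.93 in vehicle) and *Nfib* (0.77 in LN332) were higher. Of the cartilage genes that *Sox9* drives in chondrocytes, 5 of 11 were measured, and 3 were called lower in vehicle (*Matn1* -2.28, *Col11a2* -1.70 and *Col9a3* -0.83) and 2 in LN332, with none higher. Of 10 measured Wnt nuclear genes of 11 listed, 3 were called higher in vehicle (*Notum* 1.71, *Tle1* 0.86 and *Ctnnb1* 0.50) and 1 lower (*Axin2*), against 1 higher and 1 lower in LN332. Some of these levels are near the floor. In vehicle *Bmp6* averaged 0.292 CPM and *Matn1* 0.263 in MKα3+ cells, against 3.43 and 1.17 in MKα3− cells. No MKα3+ library of *Matn1* passed the filter level of 0.5 CPM, so it is in the table only through MKα3− libraries. *Notum* averaged 0.627 CPM in vehicle-treated MKα3− cells.

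LN332 called few of these genes. Over the 6 lists, with 44 measured genes, 0 were called by limma-voom or edgeR for LN332 in either line. By limma-voom 7 in MKα3+ cells and 10 in MKα3− cells had an unadjusted p under 0.05. The share of all genes under that unadjusted threshold is not given here, so these counts do not set the lists apart from the whole table. DESeq2 called 1 in each line and limma-voom with the replicate block called 1 in MKα3+ cells, and the gene was *Fscn1*, an actin-bundling gene of the SoxC-linked list (log2 0.52 with the block, adjusted p = 0.0107). Averaged over the lines *Fscn1* was called higher (log2 0.51, adjusted p = 0.0150) and *Tcf7*, a Wnt transcription factor gene, lower (log2 -0.70, adjusted p = 0.0335), both by limma-voom. *Fscn1* and *Tcf7* are named after their values were seen.

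The genes whose pattern over the 16 libraries was most like that of each member are given by Pearson's r of log2 CPM, among the 11802 genes whose mean log2 CPM reached 1. For *Sox11* they were *Prrg1* (0.995), *Cavin3* (0.995) and *Crmp1* (0.993), where the likeness is mostly that of the lines. *Cavin3* rose from means of 1.86 and 2.69 CPM in MKα3− cells to 94.6 and 169 CPM in MKα3+ cells, in vehicle and LN332. Over the 8 MKα3+ libraries, within a single line, the genes most like *Sox11* were *Prss27* (0.993), *Frk* (0.988) and *Cald1* (0.986). For *Sox4* they were *Prkca* (0.967), *Arhgap10* (0.948) and *Septin11* (0.944), for *Sox9* *Cldn23* (0.917), *Gadd45b* (0.907) and *Gprc5a* (0.889), and for *Sox12* *Hira* (0.880), *Ubr7* (0.844) and *Smo* (0.839). *Gadd45b*, a stress-response gene, had the same order of medium over line as *Sox9*, at 281 and 317 CPM in vehicle and 545 and 543 CPM in LN332 for MKα3− and MKα3+ cells. Libraries of the same group and number share their treatment and handling, so these r values describe the libraries and carry no test.

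Among the members themselves r is given within each line as a description, and a difference between the lines was not tested. *Sox11* and *Sox9* had r = 0.947 over the 8 MKα3+ libraries and 0.0708 over the 8 MKα3− libraries, where *Sox11* had at most 36 counts. *Sox4* and *Sox11* had 0.825 and 0.214, and *Sox4* and *Sox9* 0.796 and 0.564. *Sox12* had negative values with each of the others within both lines, from -0.791 (with *Sox11* in MKα3− cells) to -0.113.

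The libraries held 21735708 to 29338370 counts each, and keratinocyte markers led them. All 6 listed keratinocyte markers were measured and summed to between 7840 and 17906 CPM, with *Krt5* and *Trp63* called lower in MKα3+ cells in LN332 (log2 -0.80 and -0.91). *Krt14*, the marker with the highest level in 3 of the groups, averaged 4231 and 5802 CPM in vehicle and 6086 and 7342 CPM in LN332 for MKα3− and MKα3+ cells, and was not called (log2 0.47 and 0.30). Fibroblast (4 of 6 measured), melanocyte (2 of 6) and endothelial (4 of 4) markers summed to at most 39.4, 10.6 and 6.45 CPM, and 0 of 5 neuronal markers were measured, with *Dcn*, *Lum*, *Tyr*, *Dct*, *Mlana* and *Sox10* also outside the table. *Pmel* was called lower in MKα3+ cells in both media. Immune markers (3 of 5 measured) ran from 27.6 to 71.3 CPM in vehicle-treated MKα3− cells and from 76.5 to 272 in vehicle-treated MKα3+ cells, with *Lyz2* called higher (log2 3.06, adjusted p = 0.0469 by limma-voom), and from 20.6 to 74.7 and 26.3 to 262 with LN332. The part of these markers in the differences of *Sox4* and *Sox11* was not tested. Counts at mouse *Itga3* were 211 to 317 CPM in all groups, and since a count over the whole gene does not show which exons are missing, it does not check the labels.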

How the data were processed

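RNA from 16 libraries of MKα3− and MKα3+ cells, 4 in each of 4 groups, was enriched for poly(A), prepared with NEBNext Ultra II and sequenced. The authors aligned reads to mm10 (Rsubread), assigned them to Entrez genes with the annotation built into featureCounts, and deposited raw counts of 14474 genes with no normalization. The filter of the methods, more than 0.5 CPM in at least 3 libraries, removed 0 genes.

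From the counts, TMM factors (0.941 to 1.06) were computed with edgeR 4.0.16. Weights, contrasts and moderated statistics came from limma-voom (limma 3.58.1, R 4.3.3), in a single fit of 16 libraries with a coefficient per group and Benjamini-Hochberg adjustment over all genes. Calls needed an adjusted p under 0.05 with a log2 fold change beyond 0.5 in either direction. CPM are TMM-normalized, with a prior count of 2 on the log2 scale. Exact permutation tests compared means of CPM over all splits of 4 against 4, two-sided. No 2 replicates were closer than a chi-square per degree of freedom of 5.45, far from sampling noise.

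Replicate numbers come from the labels. Deviations from the group means of same-numbered libraries correlated at 0.24 or more in all 4 pairs of the vehicle line comparison and of both LN332 comparisons, so there the numbers pair the libraries. In the LN332 line comparison 3 of 4 pairs were over 0.1 and 1 was at -0.086. The condition that every pair be over 0.1 was thus not met, and the numbers were not taken as pairs there. The replicate block still has 1 effect per number over all 16 libraries, so it ties the numbers in that comparison too.

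The genes and lists were chosen with earlier results of these data known. Named beside the members are, for each list and comparison, up to 4 called genes with the largest change and no overlap between groups, and for each member the 3 genes most like it. Genes named outside this rule, such as those called with overlap or not called, were chosen after their values were seen. Positions come from RefSeq GRCm38.p6, exon lengths, coding stretches and overlaps from GENCODE, and promoters from RefSeq. Alternatives included DESeq2 1.42.0, edgeR's quasi-likelihood test, other scalings and filters, the replicate block, quality weights, only the groups compared, other fold minimums and each library left out. The procedure was tested on simulated data.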

Additional observations from a re-analysis of the deposited data

Results flagged for a closer look

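*Sox11* in vehicle-treated MKα3− cells had 1 library apart from the others of its group. Replicate 4 was at 1.11 CPM and replicates 1 to 3 lay between 0.673 and 0.712, in a group whose counts run from 19 to 32. Among the 16 groups of the 4 members examined this way, 0.8 would be picked out by chance.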

How the results depend on the processing

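Over 26 refits, of which the one with no filter on low counts is the same fit because the filter removed 0 genes, *Sox4*, *Sox12* and *Sox9* gave 462 values. Of these, 434 kept their side of the threshold, 16 fell below it (11 of *Sox4* and 5 of *Sox9*) and 12 passed it (4 and 8). The *Sox4* line difference was called in both media in all 26, between 1.19 and 1.59 on the log2 scale in vehicle and between 0.76 and 1.17 in LN332. As a description, that of *Sox11* lay between 5.54 and 6.33. With a log2 minimum of 1 in place of 0.5, the *Sox9* response in MKα3− cells and the averaged responses of *Sox4* and *Sox9* would not be called.

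*Sox9* in vehicle passed between the lines with quality weights (0.54, adjusted p = 0.00244), and with libraries left out in turn its difference ran from 0.33 to 0.53, passing without MKα3− vehicle replicate 1 or MKα3+ vehicle replicate 2. The LN332 response of *Sox9* in MKα3+ cells passed with DESeq2 (0.57, adjusted p = 0.0300), with the replicate block in limma-voom (0.56, adjusted p = 0.0394) or edgeR (0.56, adjusted p = 0.0446, chosen after seeing the data), with only the groups compared (0.56, adjusted p = 0.0295) and with quality weights (0.51, adjusted p = 0.00486). In MKα3− cells its response was not called with only the groups compared (0.86, adjusted p = 0.330) and ran from 0.74 to 1.004 with libraries left out. The LN332 response of *Sox4* passed with quality weights in MKα3+ cells (0.55, adjusted p = 0.0461), and in MKα3− cells with quality weights (1.03, adjusted p = 0.0462) and DESeq2 (0.89, adjusted p = 0.0280), and ran from 0.69 to 1.14 there with libraries left out. Averaged over the lines it ran from 0.61 to 0.83. The cause of these changes was not tested. Exact sign flips of the 4 replicate pairs cannot pass 0.05, as 2 of the 16 sign patterns are always at least as extreme. This held for the mean CPM differences of *Sox4* between the lines in vehicle (104) and of *Sox9* (11.6 between the lines in vehicle, 21.0 and 26.9 for LN332). It also held for *Sox4* between the lines in LN332 (120), where the numbers were not taken as pairs. The replicate block changed no other call of a member.

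Over the 6 gene lists, with a log2 minimum of 1, 10 genes were called between the lines in vehicle and 8 in LN332. For LN332 in MKα3+ cells the 0 called became 1 with DESeq2 or the replicate block and 3 with quality weights (*Fscn1*, *Tcf7* and *Notum*). In MKα3− cells it became 1 with DESeq2, 2 with quality weights (*Fscn1* and *Gli1*) and 0 to 3 with libraries left out, 3 without LN332 replicate 1 (*Fscn1*, *Gli1* and *Tcf7*). Over all genes, 27 were called for LN332 in MKα3+ cells, against 4 with edgeR, 121 with DESeq2, 3 by library size alone, 218 with the block, 454 with quality weights, 5 with a log2 minimum of 1 and 0 to 47 with libraries left out. In MKα3− cells 44 were called, against 165 with DESeq2, 74 by library size alone, 259 with the block, 123 with quality weights, 6 with a log2 minimum of 1 and 1 to 150 with libraries left out. Between the lines, all-gene calls ran from 1362 with a log2 minimum of 1 to 4115 with none in vehicle, and from 1345 to 4654 in LN332. Depth limits *Sox11* in MKα3− cells, which rests on at most 36 counts per library.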
